A study of Homo sapiens with 4 samples.

Results

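Metallothioneins are small cysteine-rich proteins that bind zinc, copper and cadmium, and metal response element-binding transcription factor 1 (*MTF1*) is the zinc-sensing factor that switches their genes on. The genes described here are the 9 that the symbols *MT1A*, *MT1E*, *MT1F*, *MT1G*, *MT1H*, *MT1M*, *MT1X*, *MT2A* and *MTF1* name, out of 28278 gene symbols counted. Each symbol was found once in the count table. All 4 libraries came from cells labelled HepG2, a human hepatocellular carcinoma line, that carried lentiviral Cas9 with either a control sgRNA or an sgRNA against *USP22*, which encodes a histone H2B deubiquitinase. Both groups received Sorafenib, a multikinase inhibitor, at 10 µM for 24 h, so no untreated cells enter the comparison. There were 2 libraries labelled control and 2 labelled sgUSP22. Each line is a puromycin-selected stable population made with 1 sgRNA, and nothing in the labels ties the replicates to separate infections or cultures, so the p-values measure only the spread between these libraries.

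Free zinc entering the cell is taken up by metallothionein, which buffers the metal and also scavenges oxidants. When free zinc rises, MTF1 moves to the nucleus and binds metal response elements in metallothionein promoters and in the promoter of the zinc exporter gene *SLC30A1*. Liver is among the tissues known for strong metallothionein expression, and glucocorticoids, cytokines and heavy metals are well-known inducers.

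Total counts ranged from 62030307 to 64728272 per library. Counts of *USP22* itself were 16450 and 16537 in control against 20279 and 20368 in the libraries labelled sgUSP22. Its transcript was thus not lower there but higher, with a log2 fold change of 0.22 (edgeR quasi-likelihood adjusted p = 0.000394), within 1.5-fold. Directions below follow the labels. The paper reports a check of the knockout by Western blot, which measures protein and not RNA. The defining transcripts of hepatocytes were nearly missing, with 6 of 10 markers (*ALB*, *APOA1*, *APOB*, *TTR*, *FGB* and *APOC3*) at 0 in all libraries and a summed level of at most 0.396 CPM (counts scaled to library totals adjusted with TMM factors). *CDH1* was also at 0, while *KRT8* and *KRT18* made up nearly all of the epithelial list, which summed to 1756 to 1795 CPM in control and 1315 to 1373 CPM in sgUSP22 libraries. Of 6 fibroblast markers, *DCN* rose from 10.2 and 9.38 CPM to 79.0 and 77.4 CPM and *LUM* was called higher as well. *COL1A1* did not pass the test (log2 fold change 0.106), and *COL1A2* and *THY1* were nearly missing, at most 0.472 CPM. The list summed to 632 to 637 CPM in control and 895 to 897 CPM in sgUSP22 libraries. *COL3A1* alone gave 499 and 507 CPM in control and 576 and 569 CPM in sgUSP22 libraries. Endothelial and leukocyte markers summed to at most 0.529 CPM. The part of these differences in the results below was not tested, and in bulk RNA fewer cells of a type and less RNA per cell cannot be told apart. Hepatocyte markers were nearly missing in control and sgUSP22 libraries alike, so they do not bear out the HepG2 label in either group. The label is kept here as the submitters' name, and the identity of the cells was not tested.

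The 8 metallothionein genes lie in 1 cluster on chromosome 16 of hg38, from 56608584 to 56684196, a span of 75.6 kb, and *MTF1* lies on the minus strand of chromosome 1 from 37809574 to 37859592. RefSeq promoter sequence was at hand for *MT1H*, *MT1X*, *MT2A* and *MTF1*, and was not given for *MT1A*, *MT1E*, *MT1F*, *MT1G* and *MT1M*. Shown are the 250 bases before the annotated start (GRCh38.p14, plus strand) of both metallothioneins that were lower in sgUSP22 libraries and had an entry, at chr16:56608334-56608583 for *MT2A* and chr16:56682220-56682469 for *MT1X*, and of *MT1H*, a gene listed at 0 throughout, at chr16:56669564-56669813. Capitals mark matches to the core of the metal response element, searched as TGCACNC and TGCGCNC on both strands.

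MT2A: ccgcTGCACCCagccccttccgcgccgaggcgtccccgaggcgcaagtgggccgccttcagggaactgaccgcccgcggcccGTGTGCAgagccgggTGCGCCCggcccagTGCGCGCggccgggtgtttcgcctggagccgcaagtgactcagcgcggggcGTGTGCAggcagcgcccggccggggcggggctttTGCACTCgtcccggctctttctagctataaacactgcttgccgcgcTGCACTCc

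MT1X: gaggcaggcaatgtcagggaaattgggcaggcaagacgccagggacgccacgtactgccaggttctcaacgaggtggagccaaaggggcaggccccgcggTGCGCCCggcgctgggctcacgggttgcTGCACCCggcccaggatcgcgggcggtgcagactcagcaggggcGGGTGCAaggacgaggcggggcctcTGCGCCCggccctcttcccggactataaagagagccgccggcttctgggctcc

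MT1H: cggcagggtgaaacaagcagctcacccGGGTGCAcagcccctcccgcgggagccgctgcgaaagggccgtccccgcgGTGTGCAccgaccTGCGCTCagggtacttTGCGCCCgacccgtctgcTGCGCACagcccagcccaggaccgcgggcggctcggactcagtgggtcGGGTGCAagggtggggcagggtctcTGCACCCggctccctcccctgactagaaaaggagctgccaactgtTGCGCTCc

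The *MT2A* promoter held 7 matches, 5 of them on the gene strand, the *MT1X* promoter held 4, and the *MT1H* promoter held 8. Among 27305 promoters of the same length, 24.7% held at least 1 match and 0.366% held at least 4. The window before *MTF1* held 0 matches, which says only that these letters are not in it. Both the gene with the most counts and a gene listed at 0 thus carried a dense set of matches.

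Of the 9 genes, 5 were abundant enough to test, namely *MT2A*, *MT1X*, *MT1E*, *MT1F* and *MTF1*. *MT1A*, *MT1G*, *MT1H* and *MT1M* were listed at 0 in all 4 libraries and were too low to measure. The limit that a count of 0 sets, 3 counts, lies at 0.0456 to 0.0492 CPM in these libraries and covers counting error only. No fold change can be given for these 4 genes.

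Among the 4 metallothioneins that could be tested, 3 fell and 1 rose in the libraries labelled sgUSP22, at an adjusted p under 0.05 with a change of 1.5-fold or more. Over all 15150 tested genes the same rule called 7.25% lower and 8.88% higher. *MT2A*, the main metallothionein here, fell to 52.8% of its control level, *MT1X* to 57.2% and *MT1E* to 66.2%, while the low-level *MT1F* reached 191% of its control level. The zinc sensor *MTF1* was 1.26-fold higher, which passed the test and not the 1.5-fold limit. In all 5 genes the groups did not overlap, as was the case for 38.3% of all tested genes in the higher and 37.6% in the lower direction.

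*MT2A* encodes metallothionein 2, usually the most abundant human isoform. Its counts were 15544 and 14614 in control against 9064 and 7774 in sgUSP22 libraries. In CPM, these were 255 and 234 in control against 138 and 120.4 in sgUSP22 libraries, or 245 ± 14.6 (SD, n = 2) against 129 ± 12.4 (SD, n = 2). The lower control library was still well above the higher sgUSP22 library. The log2 fold change was -0.92 (standard error 0.063, edgeR quasi-likelihood adjusted p = 2.2e-06), and -0.65 once corrected for GC content and length, still called.

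*MT1X*, an inducible type 1 isoform at the far end of the cluster, had 1687 and 1644 counts in control and 1092 and 923 counts in sgUSP22 libraries. The means were 27.0 ± 0.93 (SD, n = 2) and 15.5 ± 1.64 (SD, n = 2) CPM. Both sgUSP22 libraries were below both control libraries, and the log2 fold change was -0.80 (standard error 0.093, edgeR quasi-likelihood adjusted p = 6.16e-05). Once corrected for GC content and length it was -0.61, still called but just beyond the 1.5-fold limit. An annotated long noncoding RNA, ENSG00000259827, overlaps *MT1X* on the same strand and shares 22.0% of its 100-base windows, so reads from the 2 cannot be fully told apart.

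*MT1E*, another type 1 isoform, had 1736 and 1780 counts in control and 1309 and 1149 counts in sgUSP22 libraries, or 28.5 ± 0.0429 (SD, n = 2) and 18.9 ± 1.5 (SD, n = 2) CPM. The control libraries were nearly equal and the sgUSP22 libraries lay apart from each other, replicate 2 being the lower, as it was for *MT2A* and *MT1X*. The log2 fold change was -0.60 (standard error 0.082, edgeR quasi-likelihood adjusted p = 0.000191), just beyond the 1.5-fold limit. It fell short of that limit without sgUSP22 replicate 2 (-0.52), with library size alone (-0.54) and once corrected for GC content and length (-0.41), with an adjusted p of 0.00102 or lower in each case (edgeR quasi-likelihood).

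*MT1F* ran the other way. Its counts were 64 and 65 in control against 128 and 132 in sgUSP22 libraries. In CPM these were 1.05 ± 0.00547 (SD, n = 2) and 1.996 ± 0.0685 (SD, n = 2), and both sgUSP22 libraries lay far above both control libraries. The log2 fold change was 0.93 (standard error 0.24, edgeR quasi-likelihood adjusted p = 0.00937), the least precise of the 5. With DESeq2 the size was the same (0.93) but the adjusted p was 0.0544, which ends the call. Corrected for GC content and length, the edgeR log2 fold change was 1.16, still called.

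**Figure D1:**
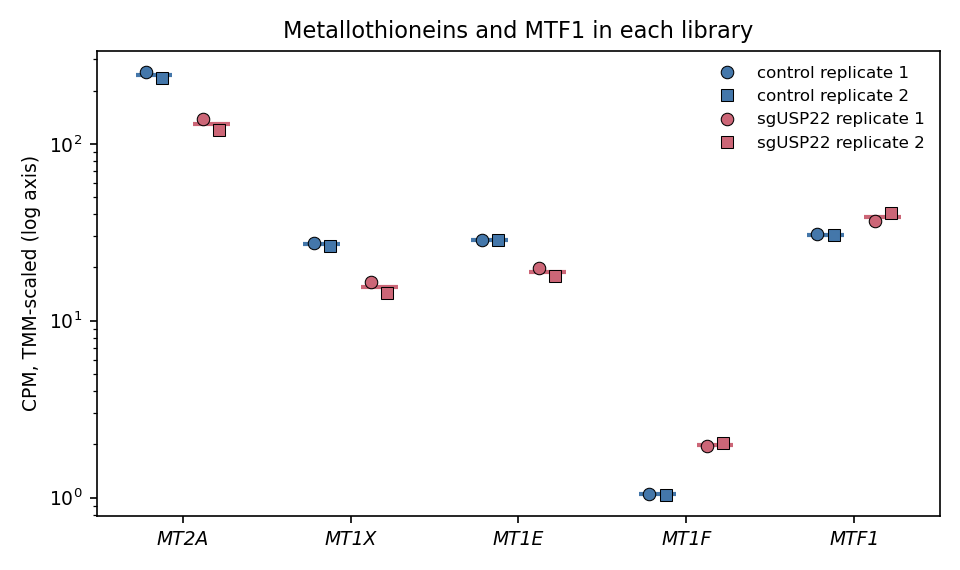
Level of each measurable member in each library, as CPM scaled with TMM factors on a log axis. Circles are replicate 1 and squares replicate 2, blue is control and red is sgUSP22, and short lines are group means (n = 2). *MT2A*, *MT1X* and *MT1E* lie lower in sgUSP22 libraries, *MT1F* and *MTF1* higher.

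Since the isoforms are near copies of each other, their transcripts were compared in GENCODE. The coding sequences of *MT1F*, *MT1X* and *MT2A* have 183 bases each before the stop codon, and *MT2A* shares 92.9% of its coding bases with *MT1X* and 91.3% with *MT1F*. The canonical transcript of *MT1E* is annotated with a longer coding sequence of 381 bases, and its identity of 44.6% to 45.9% with the other metallothioneins counts every extra base as a difference. Of the 50-base windows of the transcripts, 11.1% in *MT2A*, 51.0% in *MT1X*, 10.3% in *MT1E* and 6.12% in *MT1F* also occur in a transcript of another gene. No 50-base window of *MT1F* occurs in *MT2A*, and no 100-base window of *MT1F*, *MT1E* or *MT2A* occurs in another gene. The read length and the treatment of reads with several matches are not given in the sources used here, so the split of counts among isoforms is uncertain to that degree.

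The sum over all 16 metallothionein symbols in the table does not depend on the split among them, but reads shared with the overlapping RNA or with pseudogenes outside the table can still move it. It came to 19046 and 18114 counts in control against 11605 and 9991 in sgUSP22 libraries, or 301 ± 15.6 (SD, n = 2) and 166 ± 15.4 (SD, n = 2) CPM. The sum in sgUSP22 libraries was 55.0% of that in control libraries, a log2 ratio of -0.86 for which no test was made, and the groups did not overlap. *MT2A* made up 81.6% and 80.7% of the sum in the control libraries and 78.1% and 77.8% in the sgUSP22 libraries. *MT1F* made up 0.336% and 0.359% in control against 1.10% and 1.32% in sgUSP22 libraries. Of the other 8 symbols in the sum, 7 were listed at 0 in every library, among them the brain isoform *MT3* and *MT4*. The pseudogene *MT1DP* had between 11 and 15 counts, and its log2 fold change of -0.14 did not pass the test (edgeR quasi-likelihood adjusted p = 0.883).

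Ratios within a library do not depend on how libraries are scaled. Control libraries held 243 and 225 counts of *MT2A* for each count of *MT1F*, and sgUSP22 libraries held 70.8 and 58.9. The ratio of *MT2A* to *MT1E* was 8.95 and 8.21 in control and 6.92 and 6.77 in sgUSP22 libraries. That of *MT2A* to *MT1X* was 9.21 and 8.89 in control and 8.30 and 8.42 in sgUSP22 libraries. All 3 ratios were lower in both sgUSP22 libraries, least so for *MT1X*. With 2 libraries against 2, a two-sided exact permutation test cannot go below p = 0.333, which each ratio gave.

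**Figure D2:**
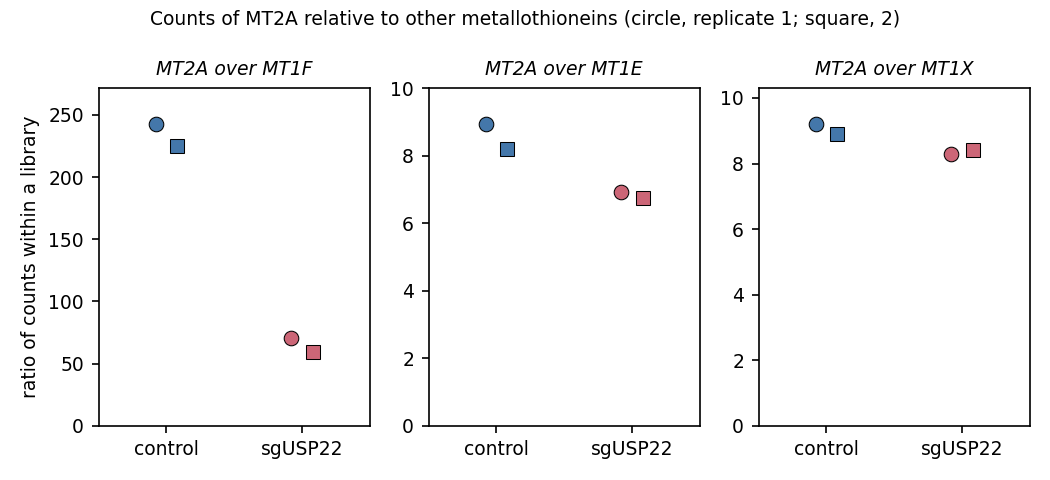
Counts of *MT2A* divided by those of *MT1F*, *MT1E* and *MT1X* within each library, on linear axes from 0. Points are single libraries (circle, replicate 1, and square, replicate 2). The ratio to *MT1F* fell from 243 and 225 to 70.8 and 58.9, and that to *MT1X* moved least.

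*MTF1*, the zinc sensor, had 1877 and 1908 counts in control and 2391 and 2631 counts in sgUSP22 libraries. In CPM these were 30.7 ± 0.141 (SD, n = 2) and 38.6 ± 3.09 (SD, n = 2). Both sgUSP22 libraries were higher than both control libraries, and they differed more from each other than the control libraries did. The log2 fold change was 0.33 (standard error 0.070, edgeR quasi-likelihood adjusted p = 0.00287). Without the 1.5-fold limit, 26.8% of all tested genes passed in the higher and 25.8% in the lower direction. Corrected for GC content and length, the log2 fold change of *MTF1* was 0.19, still past the adjusted p limit (0.0296, edgeR quasi-likelihood). The *MTF1* transcript and the metallothionein sum thus moved in opposite directions, while the amount, location and zinc loading of MTF1 protein were not measured.

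Levels can be compared between genes only per transcript length. As CPM per kb of the canonical GENCODE transcript, *MT2A* came first in control libraries with 609.9 ± 36.5 (SD, n = 2), followed by *MT1X* with 66.8 ± 2.3, *MT1E* with 38.2 ± 0.0576, *MTF1* with 3.87 ± 0.0178 and *MT1F* with 2.46 ± 0.0129. The place of *MT1E* rests on the transcript used, since its 3 annotated transcripts have between 332 and 746 bases and gave 85.8 to 38.2 CPM per kb, on either side of *MT1X*. In sgUSP22 libraries the order was the same, with *MTF1* at 4.86 ± 0.389 and *MT1F* at 4.70 ± 0.161 CPM per kb (SD, n = 2), which did not differ beyond their spread.

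The 2 genes with the most similar pattern to *MT2A* over the 4 libraries, by Euclidean distance of centred log2 CPM among 11905 genes, were *HCFC1R1* (0.0288) and *PLBD1* (0.0532). *MT1X* ranked 23 (0.123) and *MT1E* ranked 434 (0.339). For *MTF1* the nearest 3 were *ZNF445* (0.0119), *FEM1C* (0.015) and *ARSA* (0.0162). With 4 points this only describes a profile, and the distance reflects the size of a change as well as its shape.

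Zinc leaves the cytosol through transporters of the SLC30 family and enters it through those of the SLC39 family. Of 10 SLC30 genes, 7 were tested, and 4 passed at an adjusted p under 0.05, all of them higher in sgUSP22 libraries, where 26.8% of all tested genes passed in the higher and 25.8% in the lower direction. The median of the 7 log2 fold changes was 0.27, against 0.001 over all tested genes. *SLC30A1*, the plasma membrane exporter that MTF1 is known to induce, had 192 and 194 CPM in control and 224 and 235 CPM in sgUSP22 libraries, a log2 fold change of 0.25 (standard error 0.038, edgeR quasi-likelihood adjusted p = 0.000367). Corrected for GC content and length, its log2 fold change was 0.049 and did not pass. The exporters as a list then had 2 genes past the test in the higher and 1 in the lower direction, with a median of 0.030. Over all genes the median with the correction was -0.0023, and the share that passed with it was not counted. *SLC30A6* was the 1 SLC30 gene past 1.5-fold, with a log2 fold change of 0.65, where 8.88% of all tested genes were called higher. With that correction it had 0.40, below 1.5-fold.

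Of 14 SLC39 genes, 11 were tested. Among them 6 passed in the higher direction and 2 in the lower, beside 26.8% and 25.8% of all tested genes. Of the 11, 4 also reached 1.5-fold, all of them higher, where 8.88% of all tested genes were called higher and 7.25% lower. *SLC39A8*, a zinc and manganese importer, rose from 44.7 and 44.5 CPM to 79.1 and 78.9 CPM, a log2 fold change of 0.82. *SLC39A10*, a zinc importer that MTF1 is known to repress, rose from 124 and 125 CPM to 202 and 199 CPM, a log2 fold change of 0.69 (0.42, not called, once corrected for GC content and length). *SLC39A6* had a log2 fold change of 0.64 (0.54, not called, with that correction). *SLC39A4*, the intestinal zinc importer, was listed at 0 in both control libraries and had 30 and 20 counts in the sgUSP22 libraries, at least 7.88-fold higher with 3 counts set for each control library. *SLC39A1* and *SLC39A13* passed in the lower direction, with log2 fold changes of -0.12 and -0.26. With the correction neither passed (0.031 and -0.067). The importers then had 8 genes past the test in the higher and 0 in the lower direction, with a median of 0.34. Over all genes that median was -0.0023. With DESeq2, 5 importers passed in the higher and 1 in the lower direction, *SLC39A11* and *SLC39A13* being lost. The share of all genes that passed was not counted with the correction or with DESeq2.

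**Figure D3:**
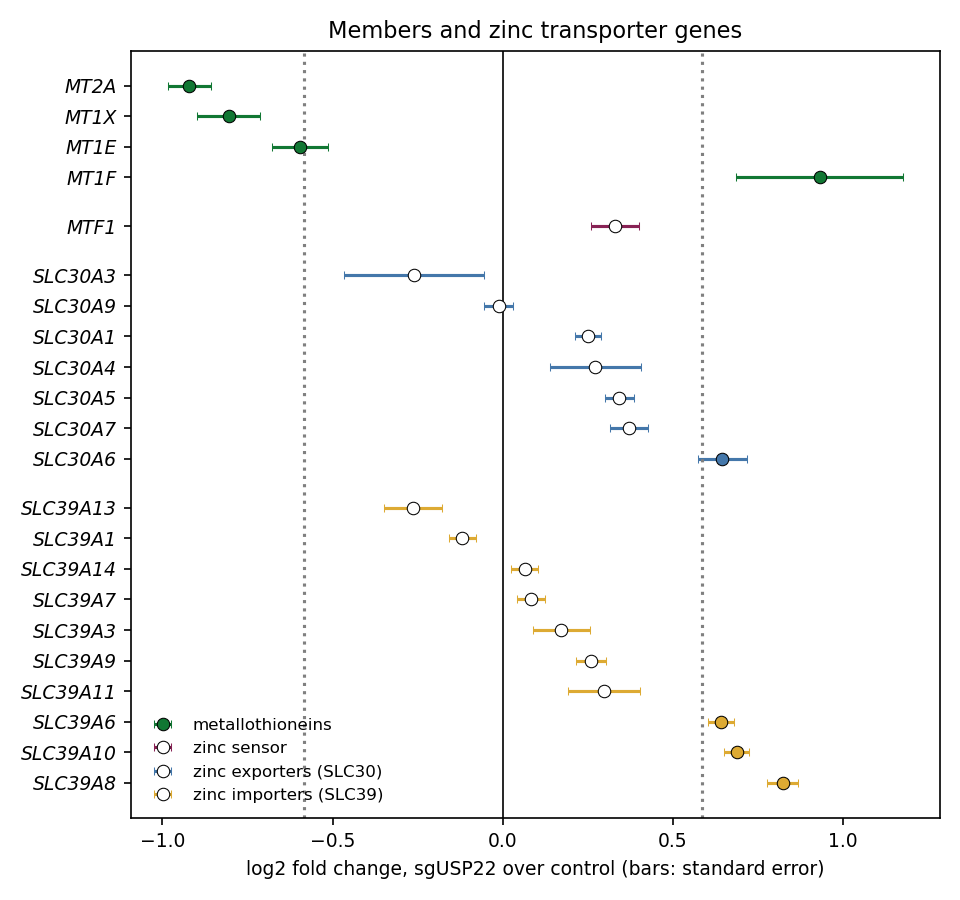
Log2 fold change (sgUSP22 over control) with its standard error for the 5 measurable members and the tested zinc transporter genes other than *SLC39A4*, which was at 0 in control libraries. Filled points were called, dotted lines mark 1.5-fold in either direction, and n = 2 per group. *MT2A*, *MT1X* and *MT1E* lie to the left, *MT1F*, *MTF1* and most transporters to the right.

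Among 9 genes described as MTF1 targets outside the metallothioneins, 7 were tested, and 3 passed in the higher and 2 in the lower direction (median log2 fold change -0.027), beside 26.8% and 25.8% of all tested genes. The 3 were *SLC30A1*, *SLC39A10* and *GCLC*, the catalytic subunit of glutathione synthesis, with a log2 fold change of 0.43. The 2 were *SELENOH*, a nuclear selenoprotein gene, with -0.56, and *CSRP1*, with -0.35. *HAMP*, which encodes the iron hormone hepcidin, was listed at 0 throughout. Corrected for GC content and length, 2 passed in each direction and *SLC30A1* was no longer among them. The share of all genes that passed with this correction was not counted.

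Heavy metals and misfolded proteins also induce stress genes. Of 6 such genes, 4 passed in the lower and 2 in the higher direction, beside 25.8% and 26.8% of all tested genes. Of the 6, 3 also reached 1.5-fold, all lower, where 7.25% of all tested genes were called lower and 8.88% higher. The heat shock genes *HSPA1A* and *HSPA1B*, near-identical copies whose reads cannot be cleanly split, had 1176 and 1128 CPM and 1044 and 1014 CPM in control libraries. In sgUSP22 libraries they had 127 and 123 CPM and 109 and 107 CPM, log2 fold changes of -3.21 and -3.25 (edgeR quasi-likelihood adjusted p = 2.53e-11 and 2.37e-11). *DNAJB1*, an HSP40 co-chaperone, had a log2 fold change of -1.66. *HMOX1*, haem oxygenase 1, fell by 0.25 on the log2 scale, while *GCLM* (0.56) and the cystine transporter gene *SLC7A11* (0.36) were higher. Corrected for GC content and length, *HMOX1* (-0.065) and *SLC7A11* (-0.010) did not pass, the sign of the latter turned, and *GCLM* had 0.31. *HMOX1* did not pass with DESeq2 or with library size alone either. The log2 changes of these 3 heat shock genes were larger in size than those of the 4 metallothioneins tested.

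To see whether the region moved as a block, the 12 other protein-coding genes starting within 500 kb of the cluster were compared. Of these, 11 were tested, 5 passed in the higher and 4 in the lower direction, beside 26.8% and 25.8% of all tested genes, and the median log2 fold change was -0.036. The tested genes starting nearest to the cluster, *BBS2* and *NUP93*, had log2 fold changes of -0.21 and -0.036. *SLC12A3* (0.74) and *NLRC5* (0.70) were called higher and *GNAO1* (-1.72) lower, beside 8.88% and 7.25% of all tested genes. Inside the cluster, *MT1F* lay between metallothionein genes that fell.

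**Figure D4:**
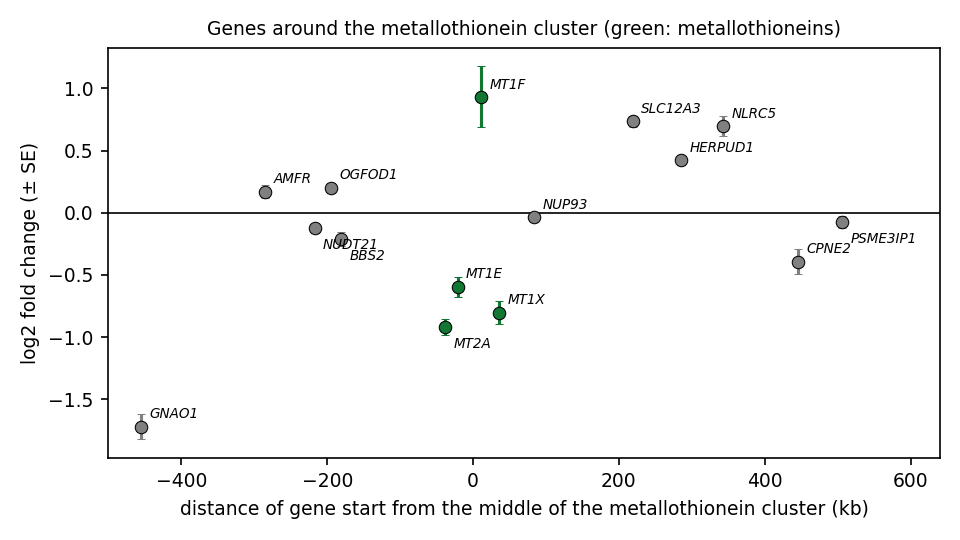
Log2 fold change with its standard error (n = 2 per group) against the distance of each gene's first coordinate from the middle of the metallothionein cluster in kb, for tested genes within 500 kb of the cluster. Green points are metallothioneins and grey points other genes, and changes in both directions lie on both sides of the cluster.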

How the data were processed

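Polyadenylated RNA was sequenced in 4 libraries, 2 for each sgRNA. Per the submitters' processing notes, alignment to hg38 used HISAT2 (2.2.1). The authors deposited whole-number gene counts from StringTie (2.2.1), not normalized for library size. The annotation, strand setting and read length are not given in the sources used here, and antisense reads may not be told apart. Columns were assigned by name, and 0 were left over.

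Here edgeR (4.0.16) in R (4.3.3) was run on these counts, using TMM factors, filterByExpr with a minimum count of 10, and glmQLFit with glmQLFTest over 15150 genes with Benjamini-Hochberg adjustment. Genes were called at an adjusted p under 0.05 and a 1.5-fold change, the thresholds of the study's methods. The study applied them with DESeq2, which called 1206 genes higher and 943 lower here, the numbers the paper reports. Standard errors equal the log2 fold change over the square root of F. CPM used TMM-scaled totals, and likeness used log2(CPM + 0.05). Replicates differed by more than sampling noise (mean chi-square per gene 8.11 in control and 8.51 in sgUSP22). Of 28278 symbols, 25763 matched GENCODE, which gave positions, lengths and GC content. The alternatives were DESeq2 (1.42.0, its filtering at 0.1), RLE factors, library size alone, *GAPDH* scaling, no filter, only genes averaging 50 counts or more, the replicate block, a lowess correction for GC content and length (span 0.3), other thresholds, and leaving out each library. The edgeR fit alone, with the block and with the correction, and DESeq2, were tested on simulated data. The test against 1.5-fold and the block combined with the correction were not. Members were named by symbol, and likeness named the nearest 3 genes, of which 1 is not reported here. The genes of each list were named if called, at most 6 by size of change, or for their role. Shares of all tested genes given beside a list are those of the main edgeR fit. Members and lists were chosen with earlier results of these data known.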

Additional observations from a re-analysis of the deposited data

How the results depend on the processing

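All 5 measurable members kept their direction under 11 other settings each and in the 4 fits that each left out 1 library, where a lone library is assumed to vary like the others. The test against 1.5-fold and the setting without the fold limit use the main estimates, so direction could not change in them. By its construction, the test against 1.5-fold called 578 genes higher and 428 lower, against 1345 and 1098, and dropping the fold limit gave 4057 and 3904. Among members, 1 was called higher and 3 lower. DESeq2 called 0 higher and the test against 1.5-fold called 0 higher and 1 lower, while 2 were higher without the fold limit, with *MTF1* (0.33) added. Leaving out a library gave 1 higher and between 2 and 3 lower. *MT1E* (-0.60) was not called with library size alone (-0.54), after the GC content and length correction (-0.41), with that correction and the replicate block (-0.41), in the test against 1.5-fold (-0.60), or without sgUSP22 replicate 2, the leave-one-out range being -0.69 to -0.52. *MT1F* (0.93) was not called with DESeq2 (0.93) or in the test against 1.5-fold (0.93), nor *MT1X* in the latter (-0.80). Why DESeq2 and edgeR differ for *MT1F* was not tested. The leave-one-out ranges were 0.90 to 0.95 for *MT1F*, -0.93 to -0.70 for *MT1X*, -1.03 to -0.83 for *MT2A*, 0.25 to 0.40 for *MTF1* and -0.96 to -0.77 for the summed metallothioneins. Those of the counts over all genes were 1158 to 1400 higher and 995 to 1139 lower.

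Scaling to *GAPDH*, which was itself lower in sgUSP22 libraries (log2 fold change -0.23), has no test and moved every value upward by construction, to -0.37 for *MT1E*, 1.16 for *MT1F*, -0.58 for *MT1X*, -0.69 for *MT2A*, 0.56 for *MTF1* and -0.63 for the sum. With the replicate block, *MT1E* had -0.60, *MT1F* 0.93, *MT1X* -0.81, *MT2A* -0.92 and *MTF1* 0.33, and the block changed no call of a member. It changed that of *SLC31A2*, a copper transporter gene. Across genes, the deviations of libraries that share a number correlated at 0.0485, so the numbers are not taken to pair the libraries. At about 64 counts per control library, *MT1F* is the measurable member with the fewest counts and the largest standard error.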

Other observations

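Copper, which metallothioneins also bind, has its own handling genes. Of 8 such genes, all were tested, 3 passed in the higher and 2 in the lower direction, and the median log2 fold change was 0.017. Over all tested genes 26.8% passed in the higher and 25.8% in the lower direction. With DESeq2 only *ATP7A* passed in the higher and *SOD1* in the lower direction. *SLC31A2*, a low-affinity copper transporter gene, had 29 and 27 counts in control and 81 and 51 counts in sgUSP22 libraries, a log2 fold change of 1.15 (edgeR quasi-likelihood adjusted p = 0.0313). It did not pass with DESeq2 (1.16) or with the replicate block (1.123). The copper pumps *ATP7A* (0.36) and *ATP7B* (0.36) were higher, and the copper chaperone *ATOX1* (-0.31) and superoxide dismutase *SOD1* (-0.24) were lower, all within 1.5-fold. Corrected for GC content and length, *ATP7A* (0.070) and *ATOX1* (-0.052) did not pass.

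Of 6 genes for factors known to act at metallothionein promoters, 3 passed in the higher direction and 0 in the lower. Over all tested genes 26.8% passed in the higher and 25.8% in the lower direction. The 3 genes, none past 1.5-fold, were the coactivator *EP300* (log2 fold change 0.46), the glucocorticoid receptor gene *NR3C1* (0.10) and *NFE2L2*, which encodes NRF2 (0.12). With RLE factors *NFE2L2* (0.117) did not pass. *SP1* (-0.003), *STAT3* (-0.047) and *USF1* (-0.070) did not pass. Corrected for GC content and length, the tally was 1 higher (*EP300*, 0.36) and 2 lower (*NR3C1*, -0.12, and *SP1*, -0.16). *NFE2L2* (0.049) did not pass, and the share of all genes that passed with this correction was not counted.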
